A study of Mus musculus with 60 samples.

Results

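Complex I is the NADH dehydrogenase that opens the mitochondrial respiratory chain, and the 47 genes described here are its nuclear subunits and a family of its assembly factors. The members were all genes whose symbol starts with Ndufa, Ndufb, Ndufc, Ndufs, Ndufv or Ndufaf, with pseudogenes left out, and they are 47 of the 22893 genes found in any of 5 expression tables. Of these, 39 carry subunit names (Ndufa, Ndufb, Ndufc, Ndufs or Ndufv) and 8 are the assembly factors Ndufaf1 to Ndufaf8. All 47 were present in each of the 5 tables, and all 47 passed the filter on low values in each. In B9 cells Ndufa4l2 passed it only through its day 6 group. Decisions on pseudogenes bear on the list. Ndufb1, which one annotation names as a pseudogene and RefSeq calls protein coding, was kept. Ndufb4c, a near copy of Ndufb4 in all 5 tables, was left out, although RefSeq calls it protein coding too.

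RNA sequencing of 60 mouse libraries was used, in 3 experiments. In the first, B9 cells (an immortalized wild-type brown preadipocyte line), pBAT cells (wild-type primary brown preadipocytes) and pWAT cells (wild-type primary white preadipocytes) were differentiated into adipocytes and collected at day 0, 2, 4 or 6, with 3 libraries per cell type and day; the primary cells came from newborn pups. In the second, wild-type pBAT cells were differentiated with 10 µM HA plus 1 mM SA (the group named HASA), 1 mM SA, 10 µM HA or vehicle, 4 libraries each. SA is succinylacetone, an inhibitor of heme synthesis, and HA is heme-arginate, a soluble form of heme. In the third, brown fat (BAT) of 4 female BAKO mice, which lack Alas1 in brown adipocytes, was set against that of 4 female WT mice. Alas1 makes the enzyme of the first step of heme synthesis. The labels used here give neither the ages of the adult mice nor the driver of the knockout, and they do not say whether libraries of cultured cells came from separate cultures, so p-values for the cells measure only the spread between libraries, which may be technical.

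Complex I passes electrons from NADH through a flavin and a chain of iron-sulfur clusters to ubiquinone and pumps protons out of the matrix. It has an L shape, with a matrix arm that holds the NADH and quinone sites and a membrane arm that holds the pumps. The pump subunits are encoded by mitochondrial DNA and all others by nuclear genes. The 7 nuclear core subunits, among them Ndufs1, Ndufs7, Ndufs8, Ndufv1 and Ndufv2, carry the redox centres and are conserved from bacteria, and the accessory subunits surround them. Assembly factors help to join and modify the subunits and are absent from the finished enzyme. Among the 39, 16 belong to the matrix arm (the 7 core subunits included), 20 to the membrane arm, and the acyl carrier protein Ndufab1 to both. Ndufa4 is now known as a subunit of cytochrome c oxidase, complex IV, and Ndufa4l2 is its hypoxia-inducible paralog. Their values are therefore also given separately, but counts, medians and shares of the 39 subunits include both unless stated. Brown fat is rich in mitochondria, and its respiratory chain supplies the proton gradient that the uncoupling protein Ucp1 releases as heat.

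The promoters of genes that move together over differentiation can be read for shared letters. RefSeq promoters (build GRCm38.p6, 250 bases before to 50 after the gene's start) were matched for 41 of the 47 members, 34 subunits and 7 assembly factors; Ndufa2, Ndufa4l2, Ndufaf6, Ndufb9 and Ndufs1 were among those with no entry. Each was searched on both strands for the motif letters of 4 factors linked to respiratory genes: GCGCANGCG (NRF1), CCGGAAG (ETS family), TNAAGGTCA (ERR family) and AANATGGCG (YY1). The NRF1 and YY1 letters are shortened cores, chosen after longer forms had been searched. Overlapping matches of one motif were counted once, and no match of one motif overlapped a match of another in the members. At least one motif was present in 22 of 41 members, 53.7%, against 18.5% of 27025 genes with a promoter. NRF1 letters were found in 24.4% of the members and 7.03% of all genes, YY1 letters in 19.5% and 2.76%, ETS letters in 14.6% and 9.93%, and ERR letters in 2.44% and 1.43%. Such a motif was present in 18 of 34 subunits and 4 of 7 assembly factors. The 27025 genes were not limited to expressed genes and were not matched to the members in base content. These are matches of letters only, and no binding was measured. The 4 promoters below are those of Ndufa6 and Ndufs7, which had large differentiation changes, of Ndufb4, which held the most matches, and of Ndufaf4, the assembly factor with the largest response to SA. Ndufa6 lies on the minus strand at chr15:82354242-82354541, Ndufb4 on the minus strand at chr16:37654319-37654618, Ndufs7 on the plus strand at chr10:80249199-80249498 and Ndufaf4 on the plus strand at chr4:24897833-24898132. Capitals mark motif matches: NRF1 in Ndufa6 and Ndufaf4, YY1 in Ndufs7, and in Ndufb4 NRF1 at 3 places with ERR between the second and the third.
Ndufa6: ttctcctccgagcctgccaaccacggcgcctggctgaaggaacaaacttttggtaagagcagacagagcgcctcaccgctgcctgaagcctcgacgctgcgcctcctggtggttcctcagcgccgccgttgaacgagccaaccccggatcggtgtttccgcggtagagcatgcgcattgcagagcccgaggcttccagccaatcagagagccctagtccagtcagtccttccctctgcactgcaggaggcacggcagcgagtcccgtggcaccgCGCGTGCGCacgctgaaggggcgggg
Ndufb4: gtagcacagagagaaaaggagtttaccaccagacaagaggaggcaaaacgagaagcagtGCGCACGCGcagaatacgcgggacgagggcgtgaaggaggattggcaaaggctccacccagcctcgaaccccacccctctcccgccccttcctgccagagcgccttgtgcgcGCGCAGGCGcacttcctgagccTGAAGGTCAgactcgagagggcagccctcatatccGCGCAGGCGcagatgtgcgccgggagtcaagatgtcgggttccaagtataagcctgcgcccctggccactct
Ndufs7: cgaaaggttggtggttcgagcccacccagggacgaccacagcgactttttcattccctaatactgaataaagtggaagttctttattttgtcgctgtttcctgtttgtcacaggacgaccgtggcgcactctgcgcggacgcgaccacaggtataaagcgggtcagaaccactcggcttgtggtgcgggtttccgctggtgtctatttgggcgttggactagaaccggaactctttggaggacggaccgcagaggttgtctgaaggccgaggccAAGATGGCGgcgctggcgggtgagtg
Ndufaf4: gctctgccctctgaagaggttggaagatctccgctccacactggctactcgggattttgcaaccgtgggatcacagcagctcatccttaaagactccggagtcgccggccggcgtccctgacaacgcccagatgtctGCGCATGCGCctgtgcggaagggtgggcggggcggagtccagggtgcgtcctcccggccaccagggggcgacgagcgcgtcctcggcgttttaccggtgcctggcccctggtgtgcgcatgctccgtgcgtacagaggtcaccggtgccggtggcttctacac

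The deposited values are log2 expression values, normalized separately in each table, so every test stays within a table. They are not divided by transcript length, and levels are compared between samples and not between genes, except where genes are grouped by level to describe precision. The call used throughout is an adjusted p under 0.05 from limma's moderated test with Benjamini-Hochberg adjustment over all genes tested in the table (12462 to 13497). Each change is 1 group's mean minus the other's, in log2 units, given with its SE. Across all genes tested the median change lay between -0.02 and 0.07 in every comparison. Marker genes were checked against the labels. The adipocyte markers Adipoq and Fabp4 were called higher at day 6 in each cell type, by 8.15 and 7.77 in B9 cells, 6.01 and 7.17 in pBAT cells and 7.0 and 7.35 in pWAT cells. Ucp1 was higher at day 6 in B9 cells (by 5.56) and pBAT cells (by 3.91) and did not pass the filter in pWAT cells. Other brown adipocyte markers rose in pWAT cells as well. Of 8 such markers, Ucp1 included, 7 were tested in B9, 8 in pBAT and 4 in pWAT cells. All those tested were higher at day 6, with median changes of 5.21, 5.13 and 4.69.

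Differentiation was accompanied by a rise of nearly every complex I gene in all 3 cell types, larger for subunits than for assembly factors in median. At day 6 against day 0 all 39 subunit genes were called higher in B9, pBAT and pWAT cells alike. The median subunit change was 1.5 in B9 cells, 1.91 in pBAT cells and 1.07 in pWAT cells, and the median over the 8 assembly factors was 0.49, 0.86 and 0.27. Only Ndufaf1, Ndufaf3, Ndufaf4 and Ndufaf7 of the 8 were higher in all 3 cell types. In B9 cells 44 of 47 members were higher and 0 lower, where 40.5% of all genes tested were higher and 38.8% lower. In pBAT cells 46 were higher and 0 lower, against 38.3% and 39.2% of all genes. In pWAT cells 43 were higher and 1 lower, against 35.3% and 35.5%. In bulk RNA, a change in the share of cells that have become adipocytes and a change in RNA per cell cannot be told apart.

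**Figure D1:**
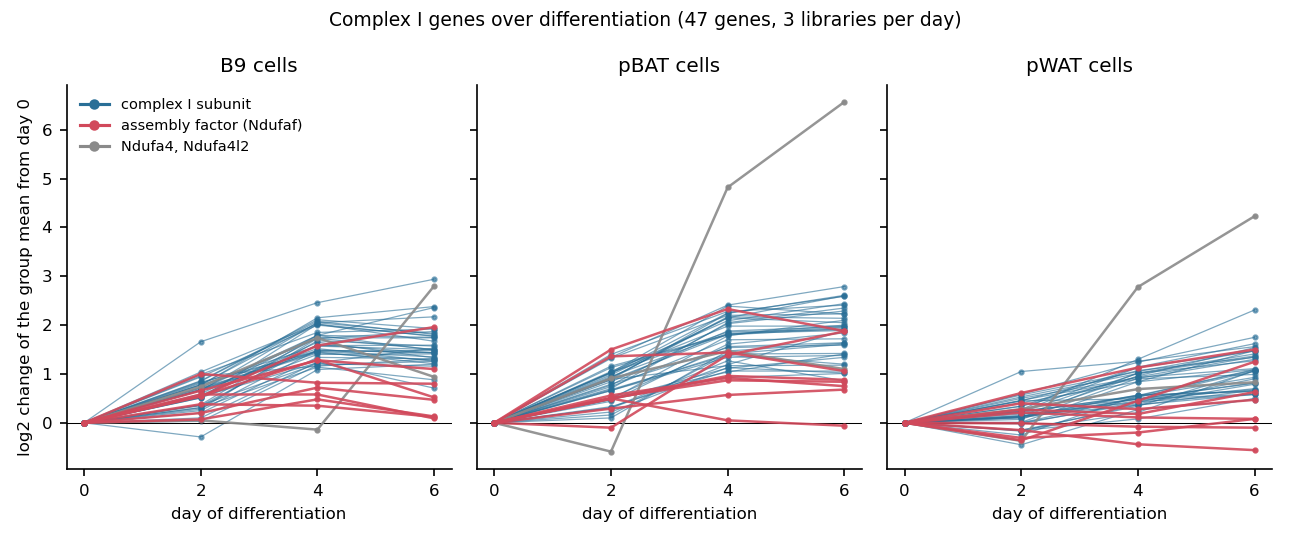
Change of each of the 47 genes from its day 0 mean (y axis, log2) at days 0, 2, 4 and 6 of differentiation (x axis) in B9, pBAT and pWAT cells, 1 line per gene, each point the mean of 3 libraries. At day 6 all subunits (blue) lie above 0 in every panel, with medians of 1.5, 1.91 and 1.07, assembly factors (red) lie lower with medians of 0.49, 0.86 and 0.27, and Ndufa4l2 (upper grey line in pBAT and pWAT cells) reaches 6.57 and 4.23.

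The rise was present by day 2 in B9 and pBAT cells. At day 2, 40 members were higher and 1 lower in B9 cells (35.1% of all genes higher, 34.0% lower), with a median change of 0.58. In pBAT cells 42 were higher and 1 lower (36.7% and 29.7% of all genes), with a median of 0.74. In pWAT cells 15 were higher and 3 lower (27.1% and 25.5% of all genes), with a median of 0.15, so most members had not passed the test by day 2. At day 4, 46 members were higher and 0 lower in B9 cells (37.6% and 37.3% of all genes; median 1.52) and 46 higher and 0 lower in pBAT cells (36.4% and 37.1%; median 1.61), while in pWAT cells 38 were higher and 1 lower (32.8% and 32.8%; median 0.55). The size of the change was not tested between cell types, whose tables were normalized apart. Side by side, the pBAT change at day 6 exceeded the pWAT change in 39 of 39 subunits and 8 of 8 assembly factors, and the B9 change exceeded it in 37 of 39 and 7 of 8.

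Ndufa6, a small matrix-arm subunit that holds the acyl carrier protein, had the largest day 2 rise in B9 and pWAT cells. In B9 cells it stood at 9.27, 9.39 and 9.13 at day 0, 10.91, 10.93 and 10.94 at day 2, 11.73, 11.68 and 11.76 at day 4 and 12.13, 12.2 and 12.28 at day 6. In pBAT cells it stood at 8.97, 8.88 and 8.96 at day 0, 10.33, 10.21 and 10.29 at day 2, 11.47, 11.32 and 11.26 at day 4 and 11.59, 11.79 and 11.8 at day 6. In pWAT cells the values were 9.36, 9.44 and 9.42 at day 0, 10.46, 10.43 and 10.48 at day 2, 10.65, 10.61 and 10.74 at day 4 and 10.97, 11 and 10.93 at day 6. No library of a later day overlapped day 0 in any of the cell types. From day 0 to day 6 the change was 2.94 (SE 0.0634, adjusted p = 1.12e-14, limma) in B9 cells, 2.79 (SE 0.0749, adjusted p = 4.8e-14) in pBAT cells and 1.56 (SE 0.0664, adjusted p = 2.95e-11) in pWAT cells. At day 2 Ndufa6 was already higher by 1.66 in B9, 1.34 in pBAT and 1.05 in pWAT cells.

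The 7 core subunits rose together by day 6, with 7 of 7 called in each cell type. Their median change was 1.74 in B9 cells, 2.14 in pBAT cells and 1.27 in pWAT cells. Ndufv1, which binds the flavin and oxidizes NADH, read 10.06, 10.3 and 10.11 at day 0 and 12.29, 12.32 and 12.39 at day 6 in B9 cells. In pBAT cells it read 9.58, 9.72 and 9.63 at day 0 and 12.17, 12.26 and 12.27 at day 6, and in pWAT cells 9.95, 9.76 and 10.15 at day 0 and 11.47, 11.45 and 11.54 at day 6, again with no overlap. These are changes of 2.17 (SE 0.068), 2.59 (SE 0.0577) and 1.54 (SE 0.102). Ndufs7, the subunit with the last iron-sulfur cluster before ubiquinone, changed by 1.87 (SE 0.0665), 2.60 (SE 0.0848) and 1.11 (SE 0.0974). Ndufs8, which carries a pair of clusters in the same region, did not follow this course. It was lower at day 2 in B9 cells (10, 10.17 and 9.95 at day 0, then 9.73, 9.85 and 9.67) by 0.29 (SE 0.0697, adjusted p = 0.00194, limma) and in pWAT cells by 0.45 (SE 0.0852, adjusted p = 0.000476), and its day 6 change was 1.2, 1.42 and 0.47.

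Beside Ndufa6, the accessory subunits Ndufb9 and Ndufv3 had large day 6 changes in all 3 cell types, and Ndufb3 in the primary cells. Ndufb9, a membrane-arm subunit of the same LYR family as Ndufa6, changed by 2.38 (SE 0.0563) in B9, 2.61 (SE 0.0733) in pBAT and 1.62 (SE 0.0781) in pWAT cells. Ndufv3, an accessory neighbour of the NADH site, changed by 2.36, 2.35 and 1.75. Ndufb3, of the membrane arm, changed by 1.77, 2.44 and 2.31. Ndufb3 in pWAT cells read 7.92, 7.88 and 7.9 at day 0, 8.04, 8.06 and 8.39 at day 2, 9.07, 9.22 and 9.31 at day 4 and 10, 10.14 and 10.49 at day 6, so its largest step came after day 2. At the other end, Ndufb7, a disulfide-rich subunit of the membrane arm, changed by 0.71 (SE 0.0802), 0.86 (SE 0.1) and 0.58 (SE 0.107). By arm, the median day 6 change was 1.58 for the matrix arm and 1.46 for the membrane arm in B9 cells, 2.02 and 1.78 in pBAT cells and 1.09 and 1.06 in pWAT cells.

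**Figure D2:**
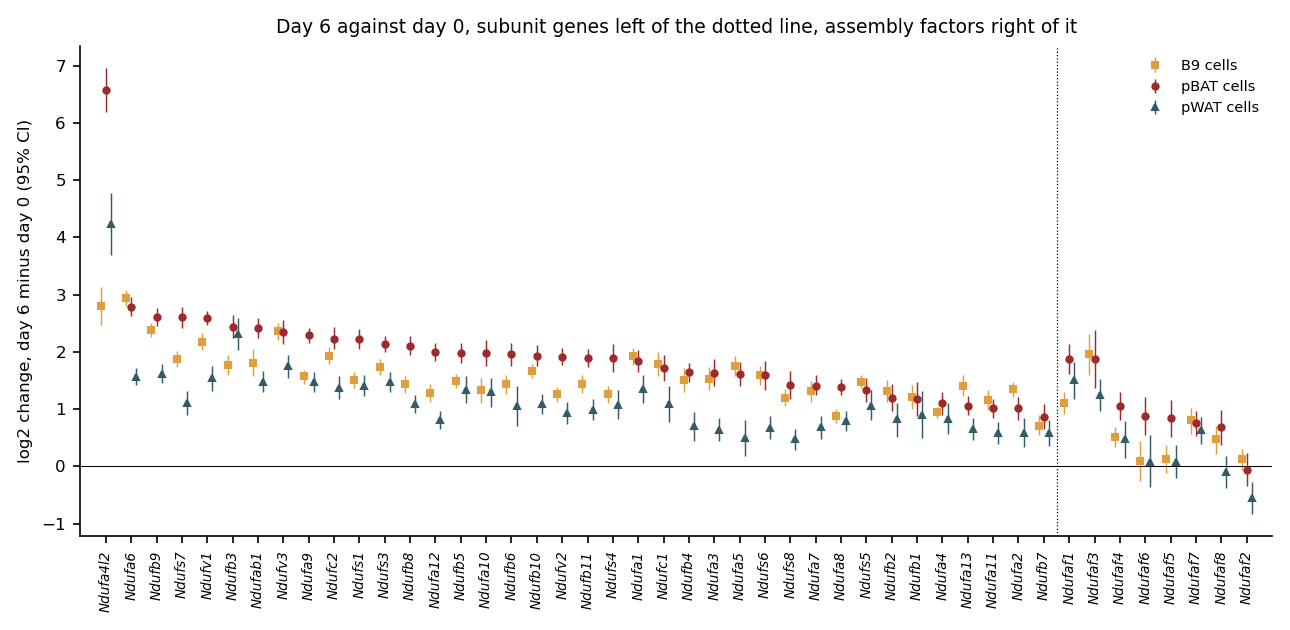
Change from day 0 to day 6 (y axis, log2, with 95% confidence interval) of 46 of the 47 genes (x axis) in B9, pBAT and pWAT cells, 3 libraries per day; subunits stand left of the dotted line and assembly factors right of it. All 38 subunits plotted lie above 0 in each cell type, while assembly factors run from Ndufaf2 (-0.56 in pWAT cells) to Ndufaf3 and Ndufaf1 (1.96 in B9 and 1.88 in pBAT cells).

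The complex IV subunit Ndufa4 changed by 0.94 (SE 0.0427) in B9, 1.10 (SE 0.0912) in pBAT and 0.83 (SE 0.125) in pWAT cells at day 6, within the range of the other subunits. Its paralog Ndufa4l2 followed another course. Ndufa4l2 in pBAT cells read 6.31, 5.81 and 6.33 at day 0, 6.08, 5.23 and 5.36 at day 2, 10.88, 10.99 and 11.02 at day 4 and 12.74, 12.72 and 12.7 at day 6. It was lower at day 2 (-0.59, SE 0.182, adjusted p = 0.0104, limma), although the day 2 and day 0 libraries overlapped and the call was lost without day 2 library 3 (adjusted p = 0.0581) or with only those groups in the fit (adjusted p = 0.0518), and higher by 6.57 (SE 0.182, 95.2-fold on the deposited scale) at day 6, the largest change of any member. In pWAT cells its day 6 libraries read 12.26, 12.3 and 11.07 against 7.52, 7.96 and 7.46 at day 0, a change of 4.23 (SE 0.251). In B9 cells it stayed between 2.38 and 2.84 through day 4 and read 5.36, 5.73 and 5.49 at day 6. It passed the filter there only through day 6, so its B9 calls at day 6 are no independent support for a rise. Without Ndufa4 and Ndufa4l2, 37 of 37 subunits were called higher in B9 cells at day 6.

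The assembly factors split into those that followed the subunits and those that did not. Ndufaf1, which helps to build the membrane arm, read 6.96, 7.09 and 7.14 at day 0, 8.34, 8.57 and 8.78 at day 2, 9.52, 9.37 and 9.3 at day 4 and 9.06, 8.76 and 9 at day 6 in pBAT cells. Its day 6 change was 1.10 (SE 0.0851) in B9, 1.88 (SE 0.121) in pBAT and 1.5 (SE 0.154) in pWAT cells. Ndufaf3, a partner of Ndufaf4 in early assembly of the quinone module, changed by 1.96 (SE 0.165), 1.87 (SE 0.239) and 1.25 (SE 0.13). Ndufaf4 changed by 0.52, 1.06 and 0.47, the last not called without pWAT day 0 library 1 or day 6 library 1, and Ndufaf7, a methyltransferase, by 0.80, 0.75 and 0.63. Ndufaf8, the partner of Ndufaf5, was higher in B9 (0.47; 0.11 and not called with quantile normalization) and pBAT cells (0.68) and was not called in pWAT cells (-0.10, adjusted p = 0.519). Ndufaf5, a hydroxylase that modifies Ndufs7, and Ndufaf6, a factor of early assembly, were called in pBAT cells only (0.84 and 0.88), with 0.13 and 0.09 in B9 cells and 0.08 and 0.08 in pWAT cells. With quantile normalization Ndufaf6 turned to -0.39 in B9 cells (adjusted p = 0.0462, limma). The difference between cell types was not tested. Ndufaf2, a late chaperone and paralog of the subunit Ndufa12, was not called in B9 (0.12, 95% confidence interval -0.07 to 0.31) or pBAT cells (-0.06, -0.34 to 0.23). In pWAT cells it was lower (6.91, 7.14 and 7.01 at day 6 against 7.57, 7.63 and 7.53 at day 0; -0.56, SE 0.129, adjusted p = 0.00142, limma). The reads of Ndufaf2 are uncertain, since 65.1% of the 31-letter words of its transcripts also occur in the noncoding gene B230220B15Rik.

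Precision differed between both classes of members. In pBAT cells, genes with a table mean of 6 to 8, where 5 of the 8 assembly factors lie, had a median SE of 0.154, against 0.0765 for genes at 10 to 12, where 25 of the 39 subunits lie. Genes at 6 to 8 were called higher at day 6 in 36.4% of cases and genes at 10 to 12 in 41.2%. The contrast in median change between the classes was not tested.

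Between day 4 and day 6 the calls differed in number and direction between cell types, a difference that was not tested. In pWAT cells 27 members were higher and 0 lower (16.1% and 15.4% of all genes), with 25 subunits and 2 assembly factors among them. The largest pWAT rises after Ndufa4l2 (1.45, SE 0.251) were those of Ndufb3 (1.01, SE 0.132), the matrix-arm subunit Ndufs4 (0.87, SE 0.118) and Ndufaf3 (0.80, SE 0.13). In pBAT cells 12 were higher and 4 lower (19.8% and 23.2% of all genes). Ndufs4 was higher by 0.71 (SE 0.114), Ndufs7 by 0.45 (SE 0.0848) and Ndufa6 by 0.38 (SE 0.0749). Ndufaf1 (-0.46), Ndufb7 (-0.41), Ndufa4 (-0.38) and Ndufaf4 (-0.38; not called without day 6 library 1) were the 4 that were lower. In B9 cells 5 were higher and 15 lower (26.6% and 26.8% of all genes), and 4 of the 8 assembly factors were among the 15. The B9 falls were led by Ndufa4 (-0.80, SE 0.0427), Ndufaf4 (-0.77, SE 0.0817), Ndufb7 (-0.52) and Ndufaf6 (-0.49). The B9 rises were led by Ndufa4l2 (2.94, a gene that passed the filter only through day 6), Ndufv3 (0.57), Ndufa6 (0.48) and Ndufa3 (0.30). The call of Ndufaf6 was lost without day 4 library 1 or day 6 library 3, and that of Ndufa3 without day 4 library 2 or day 6 library 4; both were lost with the block for library number (-0.29, adjusted p = 0.133, and 0.3, adjusted p = 0.0586, limma). The group mean peaked at day 6 for 39 of 39 subunits in pWAT cells, 30 of 39 in pBAT cells and 15 of 39 in B9 cells, the other 24 B9 subunits peaking at day 4. Of the assembly factors 5, 2 and 1 peaked at day 6 in pWAT, pBAT and B9 cells.

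The sum over all 39 subunits, as a share of each library's total on the linear scale, followed the same course. In B9 cells it was 0.158 to 0.172% at day 0, 0.261 to 0.272% at day 2, 0.519 to 0.524% at day 4 and 0.497 to 0.526% at day 6. In pBAT cells it was 0.15 to 0.166%, 0.264 to 0.280%, 0.433 to 0.491% and 0.514 to 0.553% on those days. In pWAT cells it was 0.170 to 0.183%, 0.198 to 0.206%, 0.269 to 0.298% and 0.337 to 0.384%. The ranges of day 4 and day 6 overlapped in B9 cells and did not in pBAT or pWAT cells. In pBAT cells the 2 ranges stood closer without Ndufa4l2 and still did not overlap. The share was then 0.424 to 0.482% at day 4 and 0.483 to 0.522% at day 6, a recount made after seeing the data. In pWAT cells it was then 0.263 to 0.291% at day 4 and 0.314 to 0.374% at day 6. Macrophage markers also moved with the day in the primary cells: 6 of the 7 tested were higher at day 6 in pBAT cells and 7 of 8 in pWAT cells. Their summed share was 0.0127 to 0.0138% at day 0 and 0.0587 to 0.0744% at day 6 in pBAT cells, and 0.00784 to 0.00813% and 0.0876 to 0.0977% in pWAT cells; no defining marker was at the floor there. In B9 cells the share was 0.00132 to 0.00156% and 0.00101 to 0.00125%, with Mrc1 (0.2 in the first library) and Marco (-1.07) near the floor. Only 5 of the 8 macrophage markers had values in B9 cells, and of the 3 tested 1 was higher and 2 were lower at day 6. The part of macrophage RNA in the changes of the primary cells was not tested.

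Other genes of the respiratory chain moved in the same direction by day 6. Of 13 assembly factors of complex I with other names, 11, 12 and 11 were higher in B9, pBAT and pWAT cells (median 0.67, 1.01 and 0.77), among them Foxred1 at 2.27 in pBAT cells. All 4 complex II, 9 complex III and 10 complex IV nuclear subunits tested were higher in each cell type, and of 15 complex V subunits 13, 14 and 13 were. Of the 7 mitochondrially encoded complex I subunits (mt-Nd genes), 7 were higher at day 6 in pBAT cells and 7 in pWAT cells. In B9 cells 1 was higher and 1 lower at day 6, after 7 of 7 had been higher at day 4. From day 4 to day 6 in B9 cells all 7 were lower, with mt-Nd1 at -1.98 and mt-Nd2 at -1.75, while 15 of 47 nuclear members were.

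In differentiating pBAT cells, most complex I genes were lower with SA by a small amount, and none was higher with HASA than with SA alone. With HASA 39 members were lower and 1 higher than with Vehicle (23.0% of all genes lower, 20.9% higher). With SA 33 members were lower and 0 higher than with Vehicle, against 21.4% and 20.0% of all genes tested. By class the lower members were 35 subunits and 4 assembly factors with HASA, and 29 and 4 with SA. Without Ndufa4 and Ndufa4l2, 34 of 37 subunits were lower with HASA and 27 of 37 with SA. The median change was -0.31 over all members with HASA and -0.22 with SA; for subunits it was -0.33 and -0.25, and for assembly factors -0.17 and -0.15. With HA alone 0 members were lower and 5 higher (4.09% and 4.88% of all genes). These 3 comparisons share the Vehicle libraries.

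**Figure D3:**
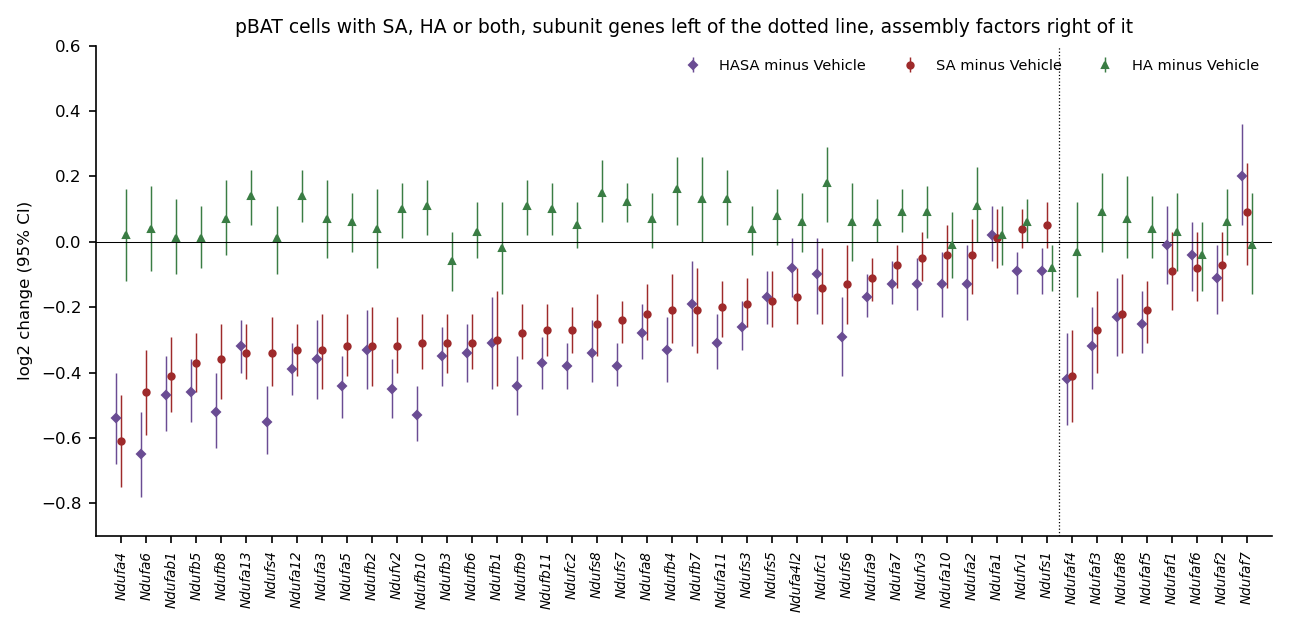
Change against Vehicle (y axis, log2, with 95% confidence interval) of 46 of the 47 genes (x axis, subunits left of the dotted line and assembly factors right of it) in pBAT cells with HASA (purple), SA (red) or HA (green), 4 libraries per group. HASA and SA points lie below 0 for most genes, down to -0.65 for Ndufa6 and -0.61 for Ndufa4, and HA points stay within 0.18 of 0.

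The largest falls with SA were in the complex IV subunit Ndufa4, the matrix-arm subunit Ndufa6 and the acyl carrier protein Ndufab1. Ndufa4 read 11.61, 11.58, 11.63 and 11.46 with HASA, 11.62, 11.61, 11.27 and 11.49 with SA, 12.14, 12.26, 12.04 and 12.1 with HA and 12.08, 12.19, 12.06 and 12.12 with Vehicle. Every HASA and SA library lay below every HA and Vehicle library. Its change was -0.54 (SE 0.0665, adjusted p = 3.46e-06, limma) with HASA and -0.61 (SE 0.0665, adjusted p = 9.93e-07) with SA. Ndufa6 read 11.75, 11.71, 11.74 and 11.54 with HASA, 11.76, 11.94, 12.02 and 11.79 with SA, 12.3, 12.45, 12.34 and 12.43 with HA and 12.27, 12.47, 12.36 and 12.27 with Vehicle. The same separation held, with changes of -0.65 (SE 0.0621, adjusted p = 1.6e-07) for HASA and -0.46 (SE 0.0621, adjusted p = 1.26e-05) for SA. Ndufab1, the acyl carrier protein that Ndufa6 and Ndufb9 bind, fell by 0.41 (SE 0.0548, adjusted p = 1.17e-05) with SA. Ndufa4l2 was lower with SA (-0.17, SE 0.042) and was the 1 subunit called with SA that was not called with HASA (-0.08, adjusted p = 0.148).

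The core subunits divided under SA. Ndufv2 (-0.32), Ndufs8 (-0.25), Ndufs7 (-0.24) and Ndufs3 (-0.19) were lower, while Ndufv1 and Ndufs1 were not called. Ndufs7 read 11.46, 11.51, 11.5 and 11.46 with HASA, 11.64, 11.67, 11.57 and 11.59 with SA, 11.93, 11.98, 11.98 and 12.02 with HA and 11.83, 11.88, 11.87 and 11.86 with Vehicle, so the 4 groups did not overlap. Its change with SA was -0.24 (SE 0.03, adjusted p = 4.59e-06, limma). Ndufs1, the largest nuclear subunit and a carrier of iron-sulfur clusters, read 12.84, 12.79, 12.82 and 12.77 with HASA, 12.88, 12.94, 13.02 and 12.94 with SA, 12.77, 12.83, 12.8 and 12.85 with HA and 12.86, 12.96, 12.88 and 12.87 with Vehicle. SA and Vehicle overlapped, with a difference of 0.05 (95% confidence interval -0.02 to 0.12). For Ndufv1 the difference was 0.04 (-0.02 to 0.10). With HASA all 7 core subunits were lower than with Vehicle, with changes from -0.45 (Ndufv2) to -0.09 (Ndufs1 and Ndufv1).

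**Figure D4:**
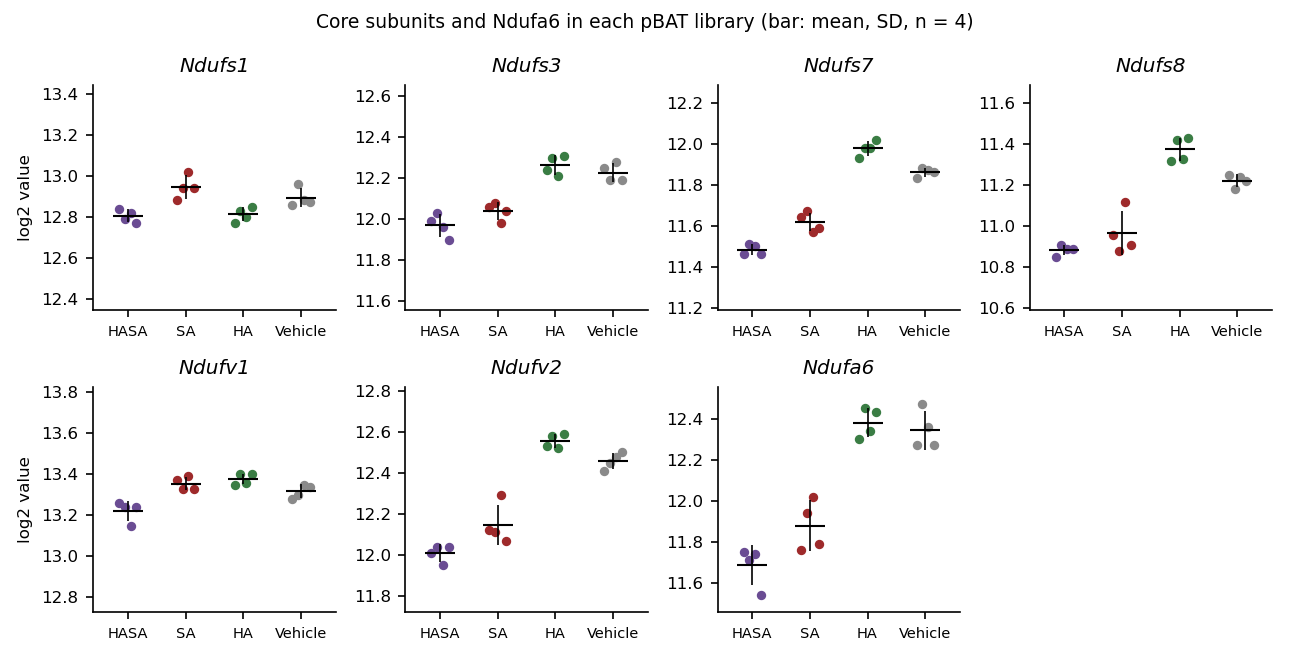
Deposited log2 value (y axis) of 6 core subunits and Ndufa6 in each pBAT library (points) with HASA, SA, HA or Vehicle (x axis), with the mean and SD of 4 libraries; every panel spans the same range. Ndufs7 separates all 4 groups, Ndufs1 and Ndufv1 show SA within or near the Vehicle range and HASA below both, and Ndufa6 lies lowest with HASA.

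Among accessory subunits 23 of 30 were lower with SA and 27 of 30 with HASA. By arm, SA lowered 17 of 20 membrane-arm and 9 of 16 matrix-arm subunits, and HASA 18 of 20 and 15 of 16. The SA falls of the membrane arm reached -0.37 (Ndufb5, SE 0.0448) and -0.36 (Ndufb8, SE 0.0545). Ndufa1, a small membrane-arm subunit, was called with neither treatment, at 0.02 (adjusted p = 0.678, limma) with HASA and 0.01 (95% confidence interval -0.08 to 0.10) with SA. Ndufa2 of the matrix arm and Ndufc1 of the membrane arm were also called with neither. Those called lower with HASA and not with SA numbered 7, among them Ndufa7, Ndufa10, Ndufs1, Ndufs6, Ndufv1 and Ndufv3.

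The assembly factors again split. Ndufaf4 read 9.01, 9.21, 8.94 and 9.09 with HASA, 9.08, 9.06, 8.95 and 9.21 with SA, 9.54, 9.39, 9.55 and 9.35 with HA and 9.56, 9.52, 9.38 and 9.48 with Vehicle. It was lower with SA by 0.41 (SE 0.0669, adjusted p = 9.14e-05, limma), a size matched or exceeded among the subunits by Ndufa4, Ndufa6 and Ndufab1. Ndufaf3 (-0.27), Ndufaf8 (-0.22) and Ndufaf5 (-0.21) were also lower with SA. Ndufaf1 (-0.09), Ndufaf6 (-0.08), Ndufaf2 (-0.07) and Ndufaf7 (0.09) were not called. Ndufaf7 read 9.59, 9.58, 9.66 and 9.55 with HASA, 9.41, 9.38, 9.59 and 9.56 with SA, 9.19, 9.55, 9.42 and 9.4 with HA and 9.44, 9.32, 9.26 and 9.56 with Vehicle. It was the 1 member called higher with HASA (0.20, SE 0.0736, adjusted p = 0.0351), though its HASA and Vehicle libraries overlapped. The call was lost in 5 of the 8 fits that left out a single library, namely HASA library 1, 2 or 3 or Vehicle library 2 or 3, with adjusted p from 0.0568 to 0.117 (limma).

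Heme-arginate added to SA took part of the complex I genes further down. In HASA against SA 12 members were lower and 0 higher (12.3% and 12.4% of all genes), all 12 of them subunits, with a median over all members of -0.06. The HASA mean lay below the SA mean in 32 of 39 subunits and 5 of 8 assembly factors. Of the core subunits 5 of 7 were called, of the matrix arm 8 of 16 and of the membrane arm 4 of 20. Ndufb10, a membrane-arm subunit facing the intermembrane space, read 11.8, 11.82, 11.74 and 11.78 with HASA, 11.94, 11.99, 12.11 and 11.98 with SA, 12.36, 12.45, 12.39 and 12.48 with HA and 12.3, 12.35, 12.25 and 12.36 with Vehicle. It was lower in HASA than in SA by 0.22 (SE 0.0396, adjusted p = 0.000687, limma). Ndufs4 was lower by 0.21, Ndufa6 by 0.19 (not called without SA library 2 or 3 or HASA library 4) and Ndufb8 by 0.16, and the core subunit Ndufs1 by 0.14. Ndufa4 did not follow, at 0.07 (adjusted p = 0.466).

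HASA against HA gave the broadest difference, 42 members lower and 1 higher (22.4% and 20.4% of all genes), with 37 subunits and 5 assembly factors lower and Ndufaf7 higher by 0.21, a call that was lost without HASA library 1 or 3 or HA library 1 or 4. The largest falls were in Ndufa6 (-0.69, SE 0.0621), Ndufb10 (-0.63, SE 0.0396), Ndufb8 (-0.59, SE 0.0545) and Ndufa4 (-0.57, SE 0.0665). The interaction is the SA effect with HA minus the SA effect without HA. Its estimate lay below 0 in 39 members and above 0 in 8. It was called below 0 in 12 members and above 0 in 0, against 3.79% and 3.88% of all genes tested. Among the 12 were Ndufb10 (-0.33, SE 0.0561, adjusted p = 0.00193, limma), Ndufb4 (-0.28), Ndufb9 (-0.27), Ndufs7 (-0.25, SE 0.0425, adjusted p = 0.0017), Ndufa11, Ndufs8, Ndufv2, Ndufa12, Ndufb11, Ndufv1 and Ndufc2. Of the 7 core subunits 5 were among them, and of the 8 assembly factors 0. With quantile normalization the 12 become 6. The call of Ndufs8 was also lost without HA library 2 or 4, HASA library 1 or 4 or Vehicle library 2 (adjusted p from 0.0508 to 0.0607, limma). Values of members that share sequence with other genes are uncertain. In 14 of the 47 members over 10% of the 31-letter words of the transcripts occur in other genes. Beside Ndufaf2 these are Ndufb6 (34.4%), Ndufa13 (33.2%), Ndufb11 (29.0%), Ndufs5 (26.5%), Ndufs3 (25.4%), Ndufa12 (20.7%), Ndufb4 (19.1%), Ndufb9 (17.2%), Ndufs6 (15.1%), Ndufb3 (13.5%), Ndufa11 (12.8%), Ndufb5 (11.9%) and Ndufab1 (11.7%).

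With HA alone 42 of the 47 members were not called against Vehicle. The 5 called higher were Ndufs8 (0.15, SE 0.0446, adjusted p = 0.0392, limma), Ndufa12 (0.14), Ndufa13 (0.14), Ndufa11 (0.13) and Ndufs7 (0.12, SE 0.03, adjusted p = 0.0201). Ndufs7 and Ndufs8 lie next to each other in the quinone module of the matrix arm. The count of 5 depended on the settings and single libraries: it was between 0 and 7, and 0 without HA library 2, HA library 4 or Vehicle library 1.

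The heme agents registered in Alas1, which heme represses. Alas1 read 12.58, 12.41, 12.45 and 12.46 with HASA, 13.78, 13.69, 13.63 and 13.77 with SA, 12.19, 12.09, 12 and 12.1 with HA and 12.43, 12.38, 12.38 and 12.51 with Vehicle. It was higher with SA by 1.29 (SE 0.0469), and with HASA it differed from Vehicle by 0.05 (adjusted p = 0.41, limma). Ucp1 changed by -1.88 with HASA and -1.90 with SA against Vehicle.

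Other respiratory genes were lower as well. Against Vehicle, HASA lowered 4 of 4 complex II, 9 of 9 complex III, 10 of 10 complex IV and 12 of 15 complex V subunits, and SA 3 of 4, 6 of 9, 8 of 10 and 12 of 15. Of the 13 other complex I assembly factors 4 were lower with SA, among them Dmac2 (-0.37, SE 0.0598), and 1 was higher, Acad9 (0.26, SE 0.091). Of the 7 mt-Nd genes 1 was lower with SA. In HASA against SA 3 mt-Nd genes were higher while 12 nuclear members were lower. With HA alone 5 of the 7 mt-Nd genes were higher than with Vehicle, and in HASA against HA 1 was higher and 1 lower. The co-activators of mitochondrial genes Ppargc1a and Ppargc1b were lower in HASA than in SA by 0.44 (SE 0.0569) and 0.34 (SE 0.0388), and the nuclear receptor gene Esrra by 0.30 (SE 0.0396). Against Vehicle, SA lowered Ppargc1a by 0.26 and Ppargc1b by 0.30 and left Esrra at 0.00 (adjusted p = 0.931).

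The share of each library taken by the 39 subunits was 0.636 to 0.647% with HASA, 0.667 to 0.721% with SA, 0.804 to 0.844% with HA and 0.799 to 0.820% with Vehicle, so HASA lay below SA and both lay below HA and Vehicle. Markers of other cells moved too. All 6 fibroblast and preadipocyte markers tested were lower with SA, and 5 of 6 with HASA; their summed share was 0.259 to 0.294% with HASA, 0.184 to 0.219% with SA, 0.368 to 0.428% with HA and 0.377 to 0.419% with Vehicle. Of 8 macrophage markers 4 were higher and 2 lower with HASA and 1 was higher and 5 lower with SA, with shares of 0.0193 to 0.0226% with HASA, 0.0126 to 0.0131% with SA and 0.0172 to 0.0210% with Vehicle; none was at the floor. Of 8 adipocyte markers 6 were higher and 2 lower with HASA, and 5 higher and 1 lower with SA. Of 7 brown adipocyte markers tested 5 were lower and 0 higher with HASA (median -0.49) and likewise with SA (median -0.28). Their summed share was 0.0291 to 0.0311% with HASA, 0.0331 to 0.0356% with SA, 0.0588 to 0.0602% with HA and 0.0512 to 0.0537% with Vehicle. The SA change also moved with coding length over all genes. Of genes with at most 400 coding bases 35.5% were lower with SA (median -0.07), and of genes with over 2500 bases 16.9% (median 0.05). Of 17 members in the shortest class 12 were lower (median -0.22), and of 15 members with 400 to 600 bases 14 (median -0.31, against -0.04 for all genes of that length). The part of these markers and of length in the complex I changes was not tested.

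In brown fat of BAKO mice no complex I gene differed from WT beyond the test. Alas1, the targeted gene, read 10.15, 10.18, 10.45 and 10.61 in BAKO brown fat and 12.79, 12.9, 12.73 and 12.97 in WT brown fat, a change of -2.50 (SE 0.113, adjusted p = 1.34e-05, limma). Of the 47 members 0 were called higher and 0 lower, against 0.0519% and 0.0593% of 13497 genes tested, which is 7 and 8 genes. Quantile normalization gave 0.0593% higher and 0.0445% lower over all genes, and again 0 members. At an unadjusted p under 0.05 there were likewise 0 members, against 8.69% of all genes. The BAKO minus WT changes ran from -0.27 to 0.11, with 35 below 0 and 12 above it.

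**Figure D5:**
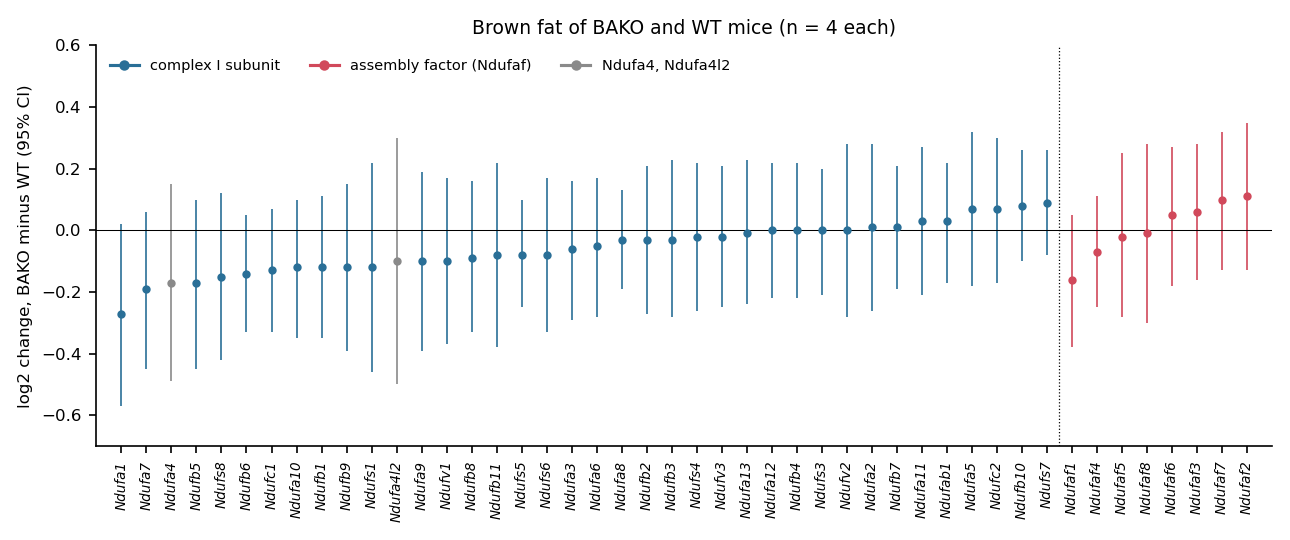
BAKO minus WT change (y axis, log2, with 95% confidence interval) of 46 of the 47 complex I genes (x axis, subunits left of the dotted line and assembly factors right of it) in brown fat, 4 mice per group. Every interval crosses 0, from Ndufa1 at -0.27 to Ndufaf2 at 0.11.

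The member farthest from 0 was Ndufa1, at 12.4, 12.32, 12.09 and 11.85 in BAKO and 12.67, 12.48, 12.3 and 12.31 in WT mice, and its groups overlapped (-0.27, SE 0.132, adjusted p = 0.61, limma). Ndufs7 read 13.83, 13.78, 13.73 and 13.78 in BAKO and 13.69, 13.76, 13.55 and 13.77 in WT mice (0.09, SE 0.0773). Ndufb10 read 13.26, 13.15, 13 and 13.09 in BAKO and 13.08, 13.08, 12.93 and 13.08 in WT mice (0.08, SE 0.0799). The groups of no member were apart. Among the assembly factors Ndufaf1 stood at -0.16, Ndufaf4 at -0.07, Ndufaf5 at -0.02, Ndufaf8 at -0.01, Ndufaf6 at 0.05, Ndufaf3 at 0.06, Ndufaf7 at 0.10 and Ndufaf2 at 0.11. The core subunits had a median of -0.03. Over all 47 the 95% confidence intervals reached from -0.57 to 0.35, and for 34 members the interval took in -0.22, the median change with SA in culture. The subunit share of the library was 1.21 to 1.34% in BAKO and 1.16 to 1.31% in WT mice. The mt-Nd share was 8.77 to 9.48% in BAKO and 7.74 to 8.0% in WT mice, without overlap, yet no mt-Nd gene was called, with mt-Nd2 at 0.53 (SE 0.15, adjusted p = 0.309, limma).

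Some brown fat libraries held skeletal muscle RNA. The summed share of muscle markers was 0.34% in BAKO library 3, 0.00493% in BAKO library 5 and 0.0173% in WT library 4, and 0.00116 to 0.00133% in the other 5. Without BAKO library 3 and WT library 4 the count of members called was again 0, as it was without these and BAKO library 5. The summed share of adipocyte markers was 0.781 to 0.944% in BAKO and 0.985 to 1.08% in WT mice, without overlap. That of brown adipocyte markers was 0.526 to 0.725% and 0.623 to 0.674%. Shares of macrophage, fibroblast, endothelial and red blood cell markers overlapped too. The part of these markers in the complex I values was not tested.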

How the data were processed

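The libraries came from 36 differentiating cell samples, 16 treated pBAT samples and 8 brown fat samples, in 5 tables of 18746 to 20180 genes. Per the submitters' processing notes, kallisto, DESeq2 and GRCm39 were used (no versions are given there); per the labels' protocols the cell libraries were stranded mRNA libraries. The deposited values were log2-scale expression values from -1.96 to 21.28, normalized by the authors in each table by steps that no source used here states; read depth is unknown. Each table was fitted with limma 3.58.1 in R 4.3.3, 1 mean per group over all libraries of the table, with a mean-variance trend, on genes whose highest group mean was at least 4. p-values were adjusted over all genes tested (Benjamini-Hochberg), calls were made at adjusted p under 0.05, and intervals are 95% limma intervals. The 19 comparisons set days within a cell type, treatments within pBAT cells, and BAKO against WT. The scripts were tested on simulated data.

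The members and gene lists were chosen with earlier results of these data known. Genes were named by rule: the 4 largest rises and falls of each comparison, members called against the majority, all assembly factors at day 6, with SA and in BAKO mice, the 7 core subunits, Ndufa4 and Ndufa4l2; examples beyond it (Ndufb7 at day 6, Ndufa1, Ndufs7 and Ndufb10 in single libraries) were chosen after their values were seen. The values of 1 member are counted in the totals and not reported by name here. Libraries of one number in different groups did not all vary together: the lowest correlation of their deviations was between -0.18 and -0.02 in every table, and the median was 0.01 to 0.02 in the cells and 0.32 over 3 pairs in brown fat, so numbers were not treated as pairs. No 2 libraries held identical values. Alternatives were the filter (none, or 6), median centring, quantile normalization, no trend, only the groups compared, a block for library number, and leaving out single libraries, plus leaving out the libraries with muscle RNA, and recounting the subunit share without Ndufa4l2, alone or with Ndufa4, both chosen after seeing the data.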

Additional observations from a re-analysis of the deposited data

Results flagged for a closer look

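In 136 groups of 4 libraries, 2 had 1 library far from the others; chance gives such a gap in about 1 group in 20. Ndufb8 in Vehicle library 3 stood highest, at 12.94, with the group starting at 12.88. Ndufaf4 in WT brown fat library 5 stood lowest, at 10.21, with the group reaching 10.43.

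For 12 subunits the effect of SA differed with and without HA by the test of the interaction in limma. Among them the SA effect with HA minus that without HA was -0.33 for Ndufb10, -0.28 for Ndufb4, -0.27 for Ndufb9, -0.25 for Ndufs7, -0.24 for Ndufa11, -0.24 for Ndufs8, -0.23 for Ndufv2, -0.20 for Ndufa12, -0.20 for Ndufb11, -0.19 for Ndufv1 and -0.17 for Ndufc2. All 12 were lower in HASA than in HA libraries.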

How the results depend on the processing

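Of 19 counts of members called, 17 stayed within 1.5 times of the reported count under every alternative run. The exceptions were HA against Vehicle and the interaction. The HA count of 5 was 1 with no filter, 3 with quantile normalization (2 higher, 1 lower), 2 without the trend, 3 with only the groups compared, and 0 to 5 with single libraries left out (0 without HA 2, HA 4 or Vehicle 1, 2 without Vehicle 3 and 1 without Vehicle 4). The interaction count of 12 was 6 with quantile normalization and 8 to 15 with single libraries left out. The cause was not tested. With library number as a replicate block the counts were 40, 46, 44 and 15 in B9 cells, 43, 46, 46 and 14 in pBAT cells and 18, 38, 44 and 29 in pWAT cells (days 2, 4 and 6 against day 0, then day 6 against day 4), 35 for SA, 4 for HA and 41 for HASA against Vehicle, 13 for HASA against SA, 42 for HASA against HA, 11 for the interaction and 0 for BAKO. Libraries correlated best with one of their own number in 2 of 12 B9, 4 of 12 pBAT, 5 of 12 pWAT, 7 of 16 treated pBAT and 3 of 8 brown fat libraries.

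Of 2582 recomputed changes of named members, 2500 kept direction and call (30 of these turned sign without a call in either fit), 78 lost the call and 3 gained it. The 1 that reversed was Ndufaf6 in B9 cells at day 6, at -0.39 with quantile normalization. That setting moved the median change of all genes to -0.124 in pWAT cells at day 6. Unknown depth, small groups and the larger SE of low genes limit what can be said of assembly factors.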
